A study of Homo sapiens with 12 samples.

Results

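The cells described here are PC-9 cells that had survived osimertinib, measured before and after SK-216. PC-9 is a human lung adenocarcinoma line with an activating mutation of the epidermal growth factor receptor (EGFR), and osimertinib is an inhibitor of that receptor. All arrays titled as tolerant PC-9 cells (3) and all titled as such cells with SK-216 (3) were taken, 6 of the 12 arrays of the series. The tolerant group had been kept in 0.5 µM osimertinib for 1 week and was collected on day 8. The SK-216 group had the same 0.5 µM osimertinib for 1 week, then 100 µM SK-216, a compound the labels give by code only, and held the cells still alive 48 h later. The other 6 arrays hold H1975, a second EGFR-mutant lung adenocarcinoma line, under the same 2 treatments, and serve only to test where PC-9 differed. Every group was thus exposed to osimertinib, and no untreated cells enter any comparison.

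The measurement was a 1-colour whole-transcript microarray with 21448 probe sets, of which 17709 carry a gene symbol. The values are log2 signals as deposited, so a difference of 1 is a doubling. PC-9 values ran from 2.21 to 18.41 with array medians of 6.61 to 6.62. Across probe sets, arrays of the same PC-9 group correlated at r = 0.9934 to 0.9951, and tolerant with SK-216 arrays at r = 0.9923 to 0.9943, ranges that overlap. Arrays have no read depth, and their number, 3 in each group, limits the precision. The labels name no separate cultures behind the replicates, so p-values cover no more than array-to-array spread, and that may be technical. Tolerant cells kept for those 48 h without SK-216 were not analysed here, so the compound and the added time cannot be told apart. Whether osimertinib stayed in the medium during those 48 h is not stated. The source field of the SK-216 samples speaks of naive cells, whereas title and description speak of tolerant ones, and the latter were followed. In RNA from whole cultures, a change within each cell and a change in which cells survived cannot be told apart either.

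The epithelial identity of the line was seen in both groups. Of 9 epithelial and lung markers, 7 lay above 5.16, the 95th percentile of 349 olfactory receptor probe sets, which are taken here as a gauge of unexpressed genes (median 3.63). KRT8 had a mean log2 signal of 16.30 ± 0.04 (SD, n = 3) on the tolerant arrays and 16.41 ± 0.06 with SK-216, KRT18 14.65 ± 0.08 and 14.91 ± 0.05, and EPCAM 15.29 ± 0.03 and 15.43 ± 0.05. The lung lineage factor NKX2-1 (4.17 ± 0.41 and 4.62 ± 0.15) and the protease NAPSA (3.96 ± 0.21 and 3.40 ± 0.12) lay below that percentile. SFTPB, the remaining lung marker of the 9, lay above it in the tolerant cells, so the lung-lineage markers were split by the gauge. Among markers of other cell types, 7 of 17 for leukocytes, 6 of 12 for endothelium and 4 of 11 for fibroblasts lay above it in the tolerant cells. The mean level of the leukocyte markers was 5.18 to 5.35 on tolerant and 5.10 to 5.22 on SK-216 arrays, while PTPRC (CD45) and CD3D were at unexpressed levels. For endothelial markers it was 5.54 to 5.62 against 5.48 to 5.63, with PECAM1 and KDR at unexpressed levels, and for fibroblast markers 4.87 to 4.99 against 4.87 to 5.00, with FAP and LUM there. Other members were well above the gauge. The brightest in the tolerant cells were CD68 at 11.60 for leukocytes, ENG at 11.93 for endothelium and COL1A2 at 7.90 for fibroblasts. None of these markers passed the test described next.

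Cells make cholesterol from acetyl-CoA through mevalonate, squalene and lanosterol. The transcription factors SREBP1 and SREBP2 sense membrane sterol through SCAP and INSIG proteins in the endoplasmic reticulum, and when sterol is low they reach the nucleus and switch on the enzymes of the pathway. ATF4 is the transcription factor of the integrated stress response, which turns on amino acid synthesis and uptake and the loading of transfer RNAs when amino acids or protein folding fail. Metallothioneins are small proteins that bind zinc and copper and are induced by metals and stress. These are background, and what drove any change in these cells was not tested.

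After SK-216, 80 probe sets were higher (0.373% of all tested) and 15 were lower (0.0699%) at an adjusted p below 0.05, which is what "called", "rose" and "fell" mean throughout. The test was a limma fit of the 4 group means to all 12 arrays, two-sided, with Benjamini-Hochberg adjustment over all 21448 probe sets. Changes are SK-216 minus tolerant on the log2 scale ± the standard error of the fit. Of the rises 18 were at least 1 and of the falls 3 were at most -1. No called probe set had arrays of both groups overlapping. With 3 arrays a group the threshold largely sets this, so it adds no support to the calls. The share of all probe sets without overlap is not given here. Named genes made up 68 of the rises and 12 of the falls. At an unadjusted p below 0.05 there were 1371 higher (6.39%) and 971 lower (4.53%) probe sets, and this background was uneven over the signal range. In the brightest of 3 equal bins of probe sets by mean signal, 12.1% were higher and 4.35% lower at that level, and in the dimmest bin 2.04% and 4.71%. The median change was 0.04 in the brightest and -0.05 in the dimmest bin, and with quantile normalization -0.004 and -0.005. With that normalization the calls split into 51 higher and 18 lower. Both background shares of the brightest bin are what the counts of well-expressed gene groups below should be read against.

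**Figure D1:**
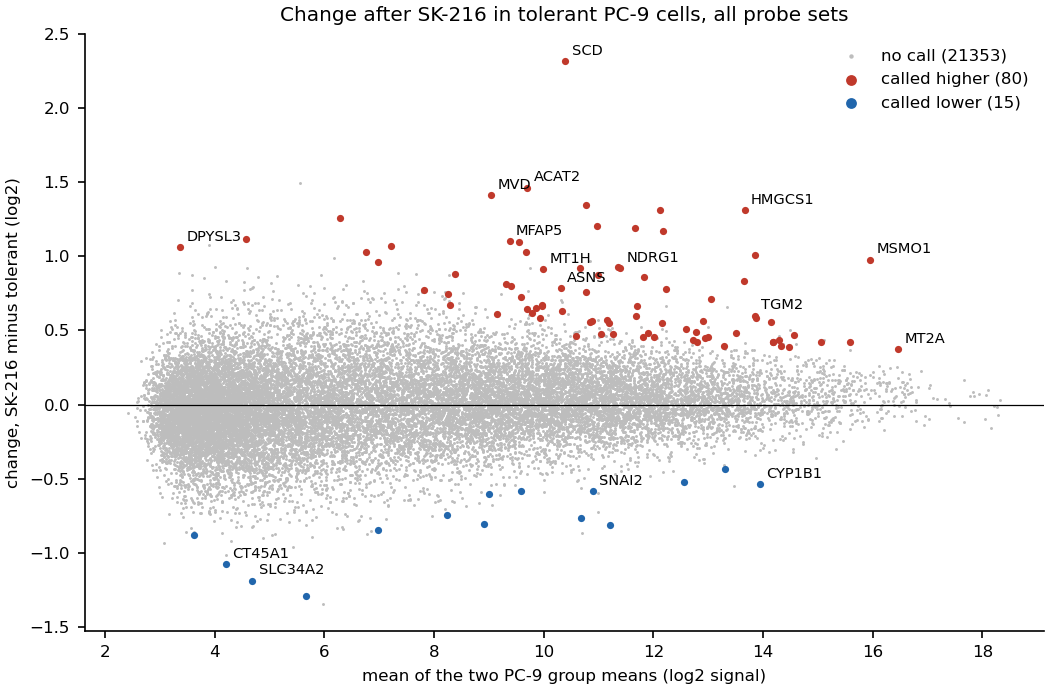
Change after SK-216 in tolerant PC-9 cells (log2, vertical axis) against the mean of both group means (log2 signal, horizontal axis) for all 21448 probe sets, each a point. Red points are the 80 called higher and blue points the 15 called lower; SCD stands apart at 2.32, and most red points lie at mean signals above 8.

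Among the 12 fits that each left out 1 array, the count of calls was lowest without SK-216 array 2. Without it 28 probe sets were higher and 2 lower, and 29 of the 95 calls were kept. Leaving out tolerant array 3 gave 40 and 6, and SK-216 arrays 1 and 3 gave 52 and 8, and 49 and 10. Of the 95 calls, 27 rises and 1 fall, that of CYP1B1, were kept in all 6 fits that left out a PC-9 array. In limma without the trend of variance on signal 18 of the rises and 0 of the falls were kept, and 1097 probe sets were higher and 998 lower at an unadjusted p below 0.05.

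Of the gene lists, those of cholesterol synthesis had the largest median changes. Of 22 listed enzymes 19 were measured under a gene name, and 13 of them rose. All 19 had a positive change, also with quantile normalization. The list was drawn up with earlier results of these data known, so its direction is a description. Enzymes from acetyl-CoA to farnesyl diphosphate had a median change of 1.24 over 8 genes, of which 5 rose, and those from squalene to cholesterol had a median of 0.92 over 11 genes, of which 8 rose. The median over all probe sets was -0.003.

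In the first arm, ACAT2, which condenses acetyl-CoA, read 8.92, 8.89 and 9.11 on the tolerant arrays and 10.24, 10.64 and 10.43 with SK-216. HMGCS1, which makes HMG-CoA, read 13.03, 12.93 and 13.06 before and 14.35, 14.33 and 14.28 after. MVD, the last decarboxylation before the isoprene units, went from 8.53, 8.47 and 8.00 to 10.01, 9.58 and 9.65. In each of these genes every SK-216 array was above every tolerant array by more than the spread within either group. IDI1, which interconverts the isoprene units, read 9.83, 10.24 and 10.21 against 11.36, 11.53 and 11.43, and FDPS, which joins them to farnesyl diphosphate, 11.41, 11.86 and 11.48 against 12.75, 12.66 and 12.85. The changes were 1.46 ± 0.15 for ACAT2 (adjusted p = 3.41e-06), 1.31 ± 0.10 for HMGCS1 (3.06e-08), 1.41 ± 0.20 for MVD (0.000582), 1.35 ± 0.17 for IDI1 (6.65e-05) and 1.17 ± 0.12 for FDPS (3.41e-06), or 2.25-fold to 2.76-fold on the linear scale. The kinases between HMG-CoA and MVD did not pass the test. PMVK was at 0.62 ± 0.24 (adjusted p = 0.328), with its SK-216 arrays at 7.60, 8.53 and 7.47, and MVK at 0.52 ± 0.21 (0.356), with SK-216 array 3 inside the tolerant range. GGPS1, which leads away from sterol to protein prenylation, was at 0.04 ± 0.13 (adjusted p = 0.946).

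In the second arm, SQLE, which opens the sterol branch by oxidising squalene, read 10.15, 10.60 and 10.35 on tolerant and 11.18, 11.89 and 11.64 on SK-216 arrays. LSS, which closes the ring to lanosterol, read 10.28, 10.11 and 10.22 and 11.15, 11.02 and 11.20. CYP51A1, the lanosterol demethylase, read 11.34, 11.49 and 11.58 and 12.81, 12.82 and 12.71. Their changes were 1.20 ± 0.16 (adjusted p = 0.000184), 0.92 ± 0.12 (0.000238) and 1.31 ± 0.10 (2.21e-08). The later enzymes rose as well: HSD17B7, a sterol ketone reductase, by 1.09 ± 0.18 (0.0023), DHCR7, which makes cholesterol from its last precursor, by 1.01 ± 0.10 (1.17e-06), MSMO1, a sterol methyl oxidase, by 0.98 ± 0.09 (8.73e-07), EBP, a sterol isomerase, by 0.78 ± 0.13 (0.0023), and NSDHL, a decarboxylating sterol dehydrogenase, by 0.65 ± 0.14 (0.0276). MSMO1 was among the brightest genes of the array, with 15.65, 15.45 and 15.31 before and 16.56, 16.38 and 16.40 after. SC5D, a sterol desaturase, was at 0.52 ± 0.19 (adjusted p = 0.293) without overlap of arrays, TM7SF2 at 0.27 ± 0.18 (0.621) and LBR at 0.15 ± 0.13 (0.733). TM7SF2 and LBR are alternative reductases of the same step, and neither passed. Among the 13 calls only that of NSDHL was lost when 1 array was left out, in 4 of 12 fits (adjusted p = 0.214 without SK-216 array 2).

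**Figure D2:**
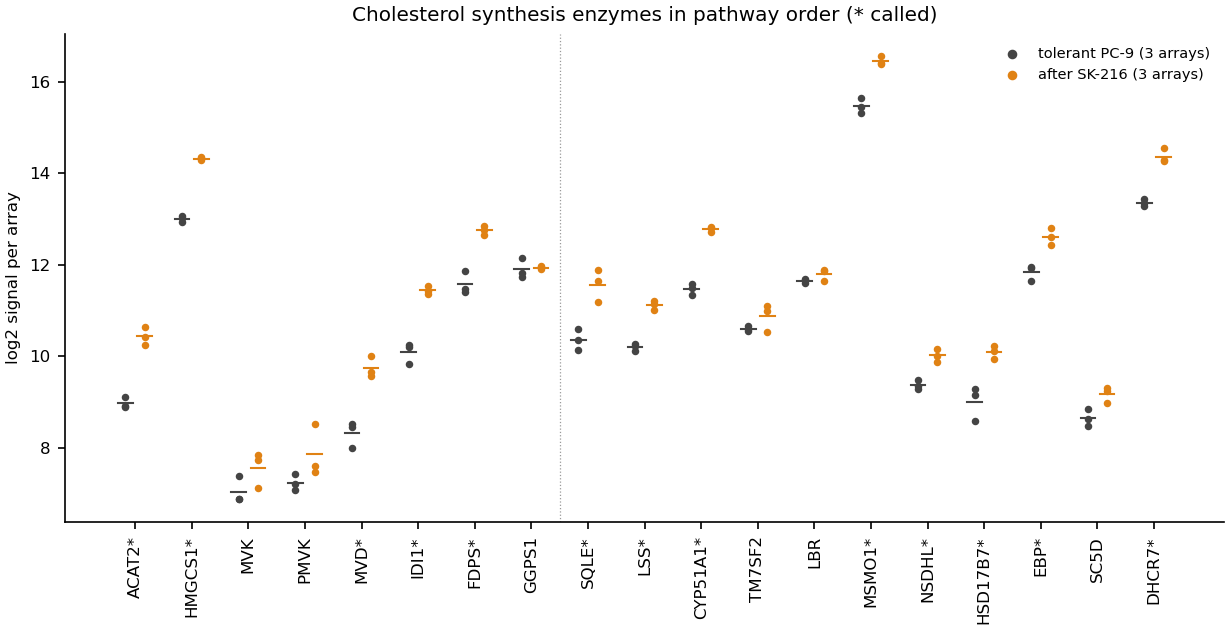
Log2 signal on each of the 6 PC-9 arrays (points) and group means (bars) for the 19 measured cholesterol synthesis enzymes in pathway order, the dotted line marking squalene; grey is tolerant, orange is after SK-216, and an asterisk marks a call. The 13 called enzymes show no overlap between groups, while MVK, GGPS1, TM7SF2 and LBR do.

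SREBPs act on promoters together with NF-Y, a factor that binds the box CCAAT, and the promoters of the genes just described are therefore of interest. RefSeq sequence (GRCh38.p14) for the 250 bases before the gene start was in hand for 11 of the 13 called enzymes and for 17 of the 19 measured. CCAAT on either strand stood in 9 of the 11 (81.8%) and 12 of the 17 (70.6%), against 33% of 27305 promoters of the table and 34.6% of 14250 promoters of genes on the array. Among all 56 named rises with a promoter 28 held it (50%). The sterol element written TCACNCCAC was in 0 of the 11, against 0.875% of all promoters, which says only that those letters are not in this window. A match is a stretch of letters, and binding was not measured. The called enzymes without CCAAT in this window were IDI1 and CYP51A1, whose changes were 1.35 ± 0.17 and 1.31 ± 0.10. The promoters of 3 enzymes of the first arm that hold CCAAT and of SCD, whose change was the largest of all, are shown 5′ to 3′ along the gene, with CCAAT or its complement ATTGG in capitals.
HMGCS1 (chr5:43313413-43313662, minus strand): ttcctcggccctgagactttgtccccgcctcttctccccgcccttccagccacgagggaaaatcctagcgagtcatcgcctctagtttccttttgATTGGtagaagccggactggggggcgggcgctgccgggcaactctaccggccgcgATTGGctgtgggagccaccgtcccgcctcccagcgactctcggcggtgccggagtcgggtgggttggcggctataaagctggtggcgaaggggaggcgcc
FDPS (chr1:155308616-155308865, plus strand): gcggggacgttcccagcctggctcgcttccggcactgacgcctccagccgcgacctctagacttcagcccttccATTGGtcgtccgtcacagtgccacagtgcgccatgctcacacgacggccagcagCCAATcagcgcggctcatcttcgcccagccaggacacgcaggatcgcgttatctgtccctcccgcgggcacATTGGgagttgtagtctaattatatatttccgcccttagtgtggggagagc
MVD (chr16:88663092-88663341, minus strand): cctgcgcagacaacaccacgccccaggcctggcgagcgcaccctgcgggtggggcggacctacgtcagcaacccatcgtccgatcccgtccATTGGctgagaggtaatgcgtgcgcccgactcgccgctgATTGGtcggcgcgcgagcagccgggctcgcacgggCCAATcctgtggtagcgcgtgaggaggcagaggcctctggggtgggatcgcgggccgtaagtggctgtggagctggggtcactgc
SCD (chr10:100346983-100347232, plus strand): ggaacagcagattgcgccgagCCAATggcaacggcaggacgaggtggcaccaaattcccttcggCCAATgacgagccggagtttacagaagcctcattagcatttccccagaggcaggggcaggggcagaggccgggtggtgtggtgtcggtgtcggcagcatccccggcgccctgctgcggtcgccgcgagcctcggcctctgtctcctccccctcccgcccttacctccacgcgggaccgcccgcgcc
MMAB, which adenosylates vitamin B12 and belongs to no list here, rose by 1.03 ± 0.16 (adjusted p = 0.00182), from 9.05, 9.27 and 9.17 to 10.25, 10.24 and 10.09. Its gene lies head to head with MVK, and the window before MMAB overlaps that before MVK (chr12:109573544-109573793, plus strand). MMAB thus rose while MVK, on the other side of this shared stretch with 5 CCAAT boxes, did not pass.
MMAB (chr12:109573505-109573754, minus strand): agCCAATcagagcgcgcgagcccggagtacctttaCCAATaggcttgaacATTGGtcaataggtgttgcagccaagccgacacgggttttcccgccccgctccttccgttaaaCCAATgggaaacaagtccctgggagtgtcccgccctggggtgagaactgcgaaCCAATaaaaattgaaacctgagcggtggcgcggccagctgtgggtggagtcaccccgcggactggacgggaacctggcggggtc

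The regulators around SREBP moved unevenly. Of 16 measured genes for SREBP control, sterol uptake, storage and efflux 2 rose and 0 fell, with a median change of 0.04. INSIG1, which holds SREBP in the endoplasmic reticulum and is itself an SREBP target, read 8.08, 7.86 and 7.90 before and 8.95, 8.83 and 8.70 after, a change of 0.88 ± 0.19 (adjusted p = 0.0295). That call was lost in 6 of 12 fits without 1 array (0.147 without SK-216 array 1). TMEM97, a sterol-responsive membrane protein that binds the cholesterol transporter NPC1, read 11.48, 11.38 and 11.36 and 12.37, 12.14 and 12.28, a change of 0.86 ± 0.10 (adjusted p = 3.03e-05). SREBF2, the gene of SREBP2, was at 0.49 ± 0.15 (adjusted p = 0.19) and its arrays did not overlap, while SREBF1 was at 0.00 ± 0.19 (0.996) with identical group means to within 0.01. SCAP was at -0.16 ± 0.15, MBTPS1, a protease that releases SREBP, at 0.00 ± 0.11, and INSIG2 at 0.16 ± 0.13. Of the sterol transport genes, NPC1 was at 0.32 ± 0.14, STARD4 at 0.52 ± 0.26, VLDLR at -0.03 ± 0.26 and SCARB1 at -0.01 ± 0.11. Efflux and storage genes were at -0.31 ± 0.23 for ABCA1, 0.07 ± 0.18 for ABCG1 and 0.09 ± 0.09 for SOAT1, with NR1H3, the sterol sensor LXR alpha, at -0.10 ± 0.22 and CYP27A1 at -0.19 ± 0.22. None of these passed, and ABCG1 was within the range of unexpressed genes.

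Of the fatty acid genes few passed. SCD, which puts the double bond into stearate and palmitate, had the largest change of all probe sets. It read 9.26, 9.66 and 8.79 on the tolerant arrays and 11.56, 11.54 and 11.56 with SK-216, so the tolerant values were scattered and the SK-216 values nearly equal. The mean rose from 9.24 ± 0.44 to 11.55 ± 0.01 (SD, n = 3), a change of 2.32 ± 0.16 or 4.98-fold (adjusted p = 1.61e-08). FADS2, the desaturase of polyunsaturated fatty acids, rose by 0.71 ± 0.11 (adjusted p = 0.00118), from 12.73, 12.82 and 12.55 to 13.56, 13.46 and 13.21. ELOVL5, which elongates them, rose by 0.42 ± 0.08 (0.0176), a call lost in 3 fits without 1 array (adjusted p = 0.127 without SK-216 array 2). In all 3 of 22 genes rose and 0 fell, 9 were higher and 0 lower at an unadjusted p below 0.05, and the median change was 0.09. FASN, the fatty acid synthase, was at 0.48 ± 0.17 (adjusted p = 0.261), ACSS2, which activates acetate, at 0.69 ± 0.20 (0.154) and ACLY, which makes cytosolic acetyl-CoA from citrate, at 0.18 ± 0.08 (0.445). ACACA, the committed step of fatty acid synthesis, was at -0.17 ± 0.12 and SCD5, a second stearoyl-CoA desaturase, at -0.04 ± 0.25. Lists of neighbouring lipid pathways held hardly any call. Of 28 phospholipid and sphingolipid probe sets 1 fell, GALC, and none of 17 PPAR receptors and targets passed (1 higher and 1 lower at an unadjusted p below 0.05), with PPARA at -0.38 ± 0.18 and CPT1A at 0.48 ± 0.16 as the extremes.

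Other rises outside the lists were picked after their values were seen, for their known part in lipid metabolism. ERG28, a scaffold of the sterol enzymes, rose by 0.58 ± 0.09 (adjusted p = 0.00101), from 13.56, 13.65 and 13.56 to 14.14, 14.27 and 14.10. SLC25A1, which exports citrate from mitochondria, rose by 0.80 ± 0.15 (0.0138), HSD17B12, a fatty acid elongation enzyme, by 0.45 ± 0.10 (0.0477) and LIPG, a secreted lipase, by 1.03 ± 0.19 (0.0118). The calls of SLC25A1, HSD17B12 and LIPG were lost in 4, 10 and 3 of the 12 fits without 1 array (adjusted p = 0.127 without SK-216 array 2, 0.237 without SK-216 array 2 and 0.0637 without tolerant array 2), while those of ERG28 and MMAB were kept in all 12.

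ATF4 targets and amino acid genes formed the next group. Of 19 ATF4 and CHOP stress regulators 4 rose and 0 fell, with 18 positive changes and a median of 0.22. TRIB3, a pseudokinase induced by ATF4, read 6.65, 6.60 and 6.24 before and 7.52, 7.72 and 7.14 after, a change of 0.96 ± 0.18 (adjusted p = 0.0108). CHAC1, which degrades glutathione, read 7.27, 7.42 and 7.58 and 8.31, 8.18 and 8.10, a change of 0.77 ± 0.16 (0.0274). DDIT4, an inhibitor of mTORC1, rose by 0.63 ± 0.13 (0.0274), and ATF4 itself by 0.45 ± 0.10 (0.0276), from 11.75, 11.82 and 11.81 to 12.23, 12.26 and 12.25, with a spread within groups of at most 0.04 (SD). DDIT3, the gene of CHOP, was at 0.52 ± 0.23 (adjusted p = 0.396) and did not pass.

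Of 17 probe sets for enzymes of serine, asparagine, proline, transsulfuration and one-carbon metabolism 2 rose. All 17 had positive changes, with a median of 0.34. ASNS, asparagine synthetase, read 10.07, 9.86 and 9.83 on tolerant and 10.90, 10.77 and 10.44 on SK-216 arrays, a change of 0.78 ± 0.12 (adjusted p = 0.00161). PSAT1, of serine synthesis, read 13.90, 13.97 and 13.75 and 14.52, 14.37 and 14.40, a change of 0.56 ± 0.09 (0.0013). CBS, of transsulfuration, was at 0.50 ± 0.12 (0.0848) on 1 probe set and at 0.32 ± 0.16 (0.47), with overlapping arrays, on another. PHGDH, which opens serine synthesis, was at 0.38 ± 0.11 (0.178), and neither gene passed the test. At an unadjusted p below 0.05 11 of these 17 were higher (64.7%, against 12.1% in the brightest bin). Among 16 cytosolic transfer RNA synthetases 2 rose, WARS1 for tryptophan by 0.46 ± 0.09 (adjusted p = 0.018) and GARS1 for glycine by 0.46 ± 0.09 (0.0274). All 16 had positive changes, with a median of 0.22. None of 14 amino acid transporters passed (3 higher and 0 lower at the unadjusted level). Their extremes were SLC36A1 at -0.28 ± 0.17 and SLC1A4 at 0.72 ± 0.22, and SLC7A11, the cystine importer, was at -0.11 ± 0.09 from a high level of 15.98, 15.77 and 15.86. The endoplasmic reticulum chaperones, which share regulators with ATF4, had 0 calls among 21, 8 higher and 0 lower at an unadjusted p below 0.05, and extremes of DNAJC3 at -0.07 ± 0.12 and SEC61B at 0.43 ± 0.14. SIL1, a cofactor of the chaperone BiP that the list leaves out, rose by 0.73 ± 0.14 (adjusted p = 0.0125, 0.0705 without tolerant array 1). Heat shock chaperones had 0 calls among 16 (5 higher and 0 lower at the unadjusted level), from BAG3 at -0.08 ± 0.11 to CRYAB at 0.75 ± 0.29.

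Most of the 8 calls of the ATF4, amino acid and synthetase lists did not hold when an array was left out. ASNS and PSAT1 kept their calls in all 12 fits without 1 array. Those of TRIB3, CHAC1, DDIT4, ATF4, WARS1 and GARS1 were lost in 3, 5, 3, 6, 2 and 4 (adjusted p = 0.111 without SK-216 array 2, 0.125 without SK-216 array 1, 0.176 without SK-216 array 1, 0.141 without SK-216 array 2, 0.134 without SK-216 array 2 and 0.222 without SK-216 array 2). In the fit of the 6 PC-9 arrays alone 2 of the 8 remained called. The letters TGATGNAA, a form of the element that ATF4 and its partners bind, stood in the promoters of ASNS and CHAC1, 2 of the 8 called genes (25%), and in 9 of 55 measured genes of these lists with a promoter (16.4%), against 3.19% of all promoters. Those windows are shown with that element or its complement in capitals.
ASNS (chr7:97872409-97872658, minus strand): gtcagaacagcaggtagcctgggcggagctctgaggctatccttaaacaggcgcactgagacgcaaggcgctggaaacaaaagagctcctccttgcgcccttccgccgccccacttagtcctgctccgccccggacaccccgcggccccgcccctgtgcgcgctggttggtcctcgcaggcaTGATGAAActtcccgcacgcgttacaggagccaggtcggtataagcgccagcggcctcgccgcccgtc
CHAC1 (chr15:40953221-40953470, plus strand): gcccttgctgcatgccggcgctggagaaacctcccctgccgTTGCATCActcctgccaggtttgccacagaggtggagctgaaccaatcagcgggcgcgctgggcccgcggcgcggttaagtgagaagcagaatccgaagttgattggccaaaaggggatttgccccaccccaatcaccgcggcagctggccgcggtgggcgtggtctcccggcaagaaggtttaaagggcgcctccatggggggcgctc

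Metallothioneins rose on 5 of 15 probe sets of a list that also holds zinc transporters, with a median change of 0.35. MT1H read 9.46, 9.73 and 9.42 before and 10.40, 10.59 and 10.36 after, a change of 0.91 ± 0.15 (adjusted p = 0.00237). MT2A, the most strongly expressed of them by signal, read 16.34, 16.29 and 16.21 and 16.45, 16.83 and 16.68, a change of 0.37 ± 0.08 (0.0274), the smallest rise of all calls. MT1F rose by 0.55 ± 0.12 (0.0411), MT1L by 0.42 ± 0.09 (0.032) and MT1B by 0.42 ± 0.09 (0.0295). In MT2A, MT1F and MT1B, SK-216 array 1 was the lowest of the 3. The proteins are nearly identical in sequence, so the probe sets may share signal and the 5 rises are not separate evidence. Only the call of MT1H was kept in all 12 fits without 1 array, and the others were lost in 4 to 7 (highest adjusted p = 0.28 without SK-216 array 2, 0.237 without SK-216 array 2, 0.232 without SK-216 array 2 and 0.19 without tolerant array 3). The zinc exporter SLC30A10 had the lowest value of the list, -0.47 ± 0.21 (adjusted p = 0.413), and did not pass. Metal response elements hold the core TGCNCNC, which stood in the 3 called metallothioneins with a promoter in the table and in 48.4% of all promoters. The window of MT2A holds it 7 times, in capitals on either strand.
MT2A (chr16:56608334-56608583, plus strand): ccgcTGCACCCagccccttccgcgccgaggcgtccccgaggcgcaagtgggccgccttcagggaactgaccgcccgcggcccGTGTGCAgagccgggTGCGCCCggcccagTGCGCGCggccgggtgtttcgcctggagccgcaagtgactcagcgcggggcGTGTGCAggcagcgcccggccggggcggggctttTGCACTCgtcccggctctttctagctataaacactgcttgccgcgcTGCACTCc

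**Figure D3:**
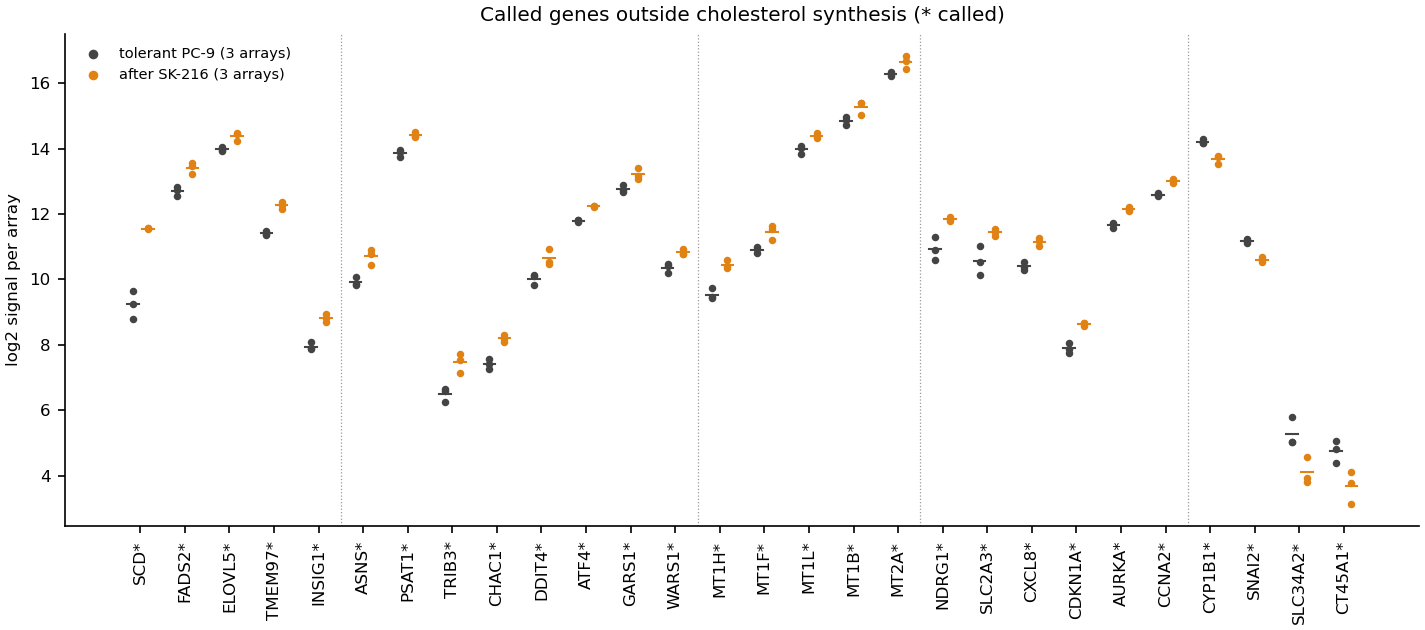
Log2 signal on each PC-9 array (points) with group means (bars) for called genes outside cholesterol synthesis, in blocks for fatty acid and SREBP genes, ATF4 and amino acid genes, metallothioneins, other rises, and falls; grey is tolerant and orange is after SK-216. No gene overlaps between groups, and SCD shows the largest gap while CYP1B1, SNAI2, SLC34A2 and CT45A1 are lower after SK-216.

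Proliferation genes were shifted slightly upward with few calls. Of 43 G2/M and mitosis genes 2 rose, AURKA, a mitotic kinase, by 0.48 ± 0.10 (adjusted p = 0.018) and CCNA2, cyclin A2, by 0.42 ± 0.09 (0.0383). CCNA2 read 12.56, 12.64 and 12.58 on tolerant arrays and 12.96, 13.03 and 13.06 with SK-216. Their calls were lost in 4 and 7 of the 12 fits without 1 array (adjusted p = 0.127 without SK-216 array 2 and 0.188 without SK-216 array 2). The list had 41 positive changes, a median of 0.26 (0.22 with quantile normalization), and 21 genes higher and 0 lower at an unadjusted p below 0.05 (48.8%, against 12.1% in the brightest bin). The members without a positive change were MKI67, the proliferation marker, at -0.04 ± 0.15, and CDCA8, of the chromosomal passenger complex, at -0.01 ± 0.21, and CCNB1, cyclin B1, was at 0.43 ± 0.13 (adjusted p = 0.174). Among 44 G1/S and replication genes 0 passed, 13 were higher and 0 lower at the unadjusted level, and the extremes were DSCC1 at -0.22 ± 0.17 and POLE2 at 0.69 ± 0.27. Replication-dependent histone genes, a family of near-identical copies, had 0 calls among 52 in the list (13 higher and 0 lower at the unadjusted level), with H2AC15 at -0.23 ± 0.21 and H4C14 at 0.48 ± 0.13 at the ends. H4C15, a gene of the same family that the list leaves out, rose by 0.66 ± 0.14 (adjusted p = 0.0284, 0.23 without SK-216 array 2), from 9.65, 9.75 and 9.51 to 10.42, 10.52 and 9.96. KNSTRN, a spindle and kinetochore protein also outside the lists, rose by 0.44 ± 0.09 (0.0274, 0.179 without SK-216 array 2). CDKN1A, the inhibitor p21 that halts the cycle, also rose, from 7.86, 8.06 and 7.75 to 8.66, 8.57 and 8.68, a change of 0.75 ± 0.16 (adjusted p = 0.0369, 0.157 without tolerant array 3). It was the single call among 19 p53 targets, whose median was -0.02.

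Stress and inflammation lists held scattered rises. NDRG1, induced by hypoxia, read 11.30, 10.91 and 10.60 before and 11.92, 11.80 and 11.85 after, a change of 0.92 ± 0.13 (adjusted p = 0.000582), and P4HA1, a collagen hydroxylase, rose by 0.47 ± 0.11 (0.0453, 0.225 without SK-216 array 2). They were the 2 calls among 22 hypoxia targets, whose median was 0.08 and whose lowest member was PFKFB3 at -0.65 ± 0.21. SLC2A3, a glucose transporter, rose by 0.87 ± 0.15 (adjusted p = 0.00378), from 11.01, 10.53 and 10.15 to 11.55, 11.44 and 11.32, and was the single call among 20 glucose transport and glycolysis genes (median 0.12). CXCL8, the neutrophil chemokine interleukin 8, read 10.39, 10.52 and 10.29 on tolerant and 11.17, 11.27 and 11.03 on SK-216 arrays, a change of 0.76 ± 0.13 (adjusted p = 0.00378). That call was lost in 1 of 12 fits (0.0545 without SK-216 array 2). In the same list of 31 NF-kB, cytokine and chemokine genes TNFAIP2 fell, so 1 rose and 1 fell. The lowest value of that list was CCL20 at -0.78 ± 0.25 (adjusted p = 0.199), which did not pass. CXCL8 and CDKN1A were also the 2 calls among 19 senescence regulators and secreted factors (median 0.28), where GDF15, a stress cytokine, was at 0.60 ± 0.18 (0.164).

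Adhesion and matrix genes gave 1 rise per list. MFAP5, a protein of elastic microfibrils, read 9.11, 8.82 and 8.56 before and 10.14, 9.98 and 9.67 after, a change of 1.10 ± 0.23 (adjusted p = 0.0274, 0.153 without tolerant array 3), alone among 31 collagen, laminin and matricellular genes. ITGA2, the collagen-binding integrin chain, rose by 0.67 ± 0.15 (0.0441, 0.254 without SK-216 array 2), alone among 24 integrin and focal adhesion genes. CD44, a hyaluronan receptor, rose by 0.48 ± 0.10 (0.0229, 0.176 without SK-216 array 2), alone among 21 genes listed for drug-tolerant and stem-like states, where the lowest was LGR5 at -0.58 ± 0.28. The medians of the matrix and integrin lists were 0.01 and 0.00, and both turn just negative with quantile normalization. In the ribosomal protein list RPS15 was the 1 call of 44, at 0.44 ± 0.09 (adjusted p = 0.0295, 0.215 without SK-216 array 2), and the highest value was RPL29 at 0.44 ± 0.12. Outside that list RPL36AL, a copy of a ribosomal protein gene, rose by 0.49 ± 0.11 (adjusted p = 0.0342, 0.215 without SK-216 array 2) and RPL17-C18orf32, which joins RPL17 to its neighbour and may share its signal, by 0.47 ± 0.09 (0.0142, 0.127 without SK-216 array 2). The list lies at a median signal of 15.4, had 42 positive changes and a median of 0.14, which was 0.09 with quantile normalization.

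The other rises belong to no list, and their roles are given as background. The largest were PRR16, which regulates cell size, at 1.12 ± 0.23 (adjusted p = 0.0274), RPA2, a subunit of the single-strand DNA binding complex RPA, at 1.07 ± 0.20 (0.0136) and DPYSL3, of the cytoskeleton, at 1.06 ± 0.21 (0.015). PRR16 read 3.96, 3.79 and 4.27 and 5.23, 4.96 and 5.18, and DPYSL3 2.92, 2.97 and 2.65 and 3.75, 4.00 and 3.97. Both lay below the level of 5.16 in both group means, so their expression above background was not shown. RPA2 read 6.59, 7.14 and 6.31 and 7.55, 7.92 and 7.77. The calls of these 3 were lost in 5, 4 and 3 of 12 fits without 1 array (adjusted p = 0.109 without SK-216 array 1, 0.112 without SK-216 array 2 and 0.0973 without SK-216 array 2). Of smaller rises chosen for mention after their values were seen, UPP1, which splits uridine, was at 0.61 ± 0.12 (adjusted p = 0.0136), HPRT1, of purine salvage, at 0.65 ± 0.14 (0.0274), SRM, spermidine synthase, at 0.62 ± 0.14 (0.0481), ASS1, of arginine synthesis, at 0.51 ± 0.09 (0.0109) and TGM2, a protein crosslinking enzyme, at 0.60 ± 0.11 (0.00865). These rises were lost in 2 to 10 of the 12 fits without 1 array (adjusted p = 0.0849 without SK-216 array 2, 0.142 without tolerant array 3, 0.261 without SK-216 array 2, 0.0746 without SK-216 array 2 and 0.0813 without tolerant array 3). The remaining named rises were ATP1B3, a sodium pump subunit, at 0.81 ± 0.15, CDCA4 at 0.67 ± 0.15, RHOF, a small GTPase, at 0.60 ± 0.13, ALDH9A1, an aldehyde dehydrogenase, at 0.58 ± 0.12, EMP3 at 0.56 ± 0.12, PRNP, the prion protein, at 0.40 ± 0.08 and CD55, a complement regulator, at 0.39 ± 0.09. Their calls were lost in 2 to 10 of the 12 fits without 1 array. A further 12 rises and 3 falls were on probe sets without a gene name here, the largest of these rises TC0X00008596.hg.1 at 1.26 ± 0.22 and TC1900007012.hg.1 at 1.19 ± 0.13.

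Of the 15 falls, 12 were of named genes. CYP1B1, a cytochrome P450 induced through the aryl hydrocarbon receptor, read 14.29, 14.18 and 14.17 on tolerant arrays and 13.76, 13.53 and 13.74 with SK-216, a change of -0.54 ± 0.08 (adjusted p = 0.0015). It was the 1 fall among 8 genes of that receptor, and TIPARP, another of its targets, was at -0.27 ± 0.10 (0.261) and AHR at -0.17 ± 0.08 (0.423), neither past the test. The rest of that list had no call and went both ways. CYP1A1 was at -0.39 and ARNT at -0.13, while ALDH3A1 was at 0.28, CYP1A2 at 0.26 and LRAT at 0.02. SNAI2, a repressor of epithelial genes, read 11.25, 11.12 and 11.18 and 10.69, 10.52 and 10.59, a change of -0.58 ± 0.11 (adjusted p = 0.00966, 0.0849 without SK-216 array 2). It was the 1 call among 17 mesenchymal genes, whose highest was FN1 at 0.32 ± 0.12, with VIM at 0.21 ± 0.14 and a median of -0.11. RUNX2, a transcription factor of bone that carcinoma cells can express, fell from 12.91, 12.68 and 12.88 to 12.36, 12.37 and 12.17, a change of -0.52 ± 0.10 (0.018). TNFAIP2, induced by tumour necrosis factor, fell by 0.43 from 13.66, 13.48 and 13.45 to 13.19, 12.97 and 13.13 (0.0473), a call lost in 11 of 12 fits without 1 array (0.294 without SK-216 array 2).

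The remaining named falls were of genes with other roles. CRISPLD2, a secreted protein, changed by -0.77 ± 0.16 (adjusted p = 0.0274), from 11.07, 11.14 and 10.97 to 10.15, 10.34 and 10.39. MAPRE2, which binds microtubule ends, changed by -0.60 ± 0.14 (0.0459), GALC, which cleaves galactosylceramide in lysosomes, by -0.58 ± 0.13 (0.033), STXBP4, a syntaxin-binding protein, by -0.74 ± 0.16 (0.0326) and HAP1, a trafficking adaptor, by -0.80 ± 0.18 (0.0459). GALC was the 1 call among 35 lysosome and autophagy genes, whose highest was WIPI1 at 0.58 ± 0.14. The largest named falls came from dim probe sets. SLC34A2, the phosphate transporter of alveolar cells, read 5.04, 5.78 and 5.03 and 3.79, 4.58 and 3.92, a change of -1.19 ± 0.25 (0.0274), and CT45A1, a cancer-testis antigen with near-identical copies, 4.80, 4.38 and 5.07 and 3.14, 3.76 and 4.12, a change of -1.08 ± 0.21 (0.018). OR13C4, an olfactory receptor, was at -0.88 ± 0.19 (0.0326). The means of CT45A1 and OR13C4 lay below 5.16 in both groups and that of SLC34A2 after SK-216, so these are changes near the level of unexpressed genes. SLC34A2 was the 1 call of 27 lung lineage and secretory genes (highest SLPI at 0.66 ± 0.16, median 0.00, which is 0.01 with quantile normalization), and CT45A1 the 1 call of 23 cancer-testis genes (highest SSX1 at 0.56 ± 0.24). Calls of RUNX2, CRISPLD2, MAPRE2, GALC, STXBP4, HAP1, SLC34A2, CT45A1 and OR13C4 were lost in 3 to 10 of the 12 fits without 1 array, with the highest adjusted p for HAP1 (0.309 without SK-216 array 2).

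In 29 of the 53 lists no member passed, and their extremes are given as values. Receptor signalling was one such field. EGFR, the target of osimertinib, was at 0.10 ± 0.12 on the tolerant readings 12.02, 11.64 and 11.94 and the SK-216 readings 11.99, 11.84 and 12.06, which overlap. Its 12 family receptors, ligands and feedback genes ran from SOCS3 at -0.40 ± 0.22 to TGFA at 0.34 ± 0.15, and 20 output genes of the ERK pathway from EPHA4 at -0.35 ± 0.28 to ETV4 at 0.62 ± 0.18. Other receptor kinases and growth factors ran from ROS1 at -0.64 ± 0.29 to KDR at 0.52 ± 0.18, and immediate early genes from NR4A2 at -0.39 ± 0.22 to FOS at 0.62 ± 0.22. For TGF-beta genes the ends were SMAD3 at -0.37 ± 0.11 and LTBP3 at 0.48 ± 0.21, for BMP genes BMPR2 at -0.29 ± 0.12 and NOG at 0.43 ± 0.25, and for YAP and TEAD genes AJUBA at -0.20 ± 0.13 and ANKRD1 at 0.40 ± 0.11. At an unadjusted p below 0.05 the counts were 2 higher and 0 lower for the EGFR list, 5 higher and 0 lower for ERK output, 2 higher and 1 lower for other receptor kinases, 2 higher and 0 lower for immediate early, 2 higher and 4 lower for TGF-beta, 0 higher and 1 lower for BMP and 2 higher and 0 lower for YAP genes. The medians of these 7 lists lay between -0.04 (TGF-beta) and 0.18 (ERK output).

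Plasminogen activation is a matrix-degrading cascade started by urokinase. None of 14 genes passed: PLAU, urokinase, was at 0.07 ± 0.12, its receptor PLAUR at 0.33 ± 0.15, and the ends were PLG at -0.42 ± 0.27 and PLGRKT at 0.76 ± 0.21. Epithelial junction genes ran from OVOL1 at -0.32 ± 0.25 to CLDN4 at 0.32 ± 0.14 with a median of 0.02 (-0.01 with quantile normalization), CDH1 at 0.20 ± 0.13 and EPCAM at 0.15 ± 0.13. Keratins ran from KRT13 at -0.29 ± 0.24 to KRT14 at 0.51 ± 0.20, with KRT8 at 0.11 ± 0.06 and KRT18 at 0.26 ± 0.08 (adjusted p = 0.155). Squamous and neuroendocrine lineage genes ran from DSG3 at -0.73 ± 0.24 to KRT14 at 0.51 ± 0.20, and NKX2-1 was at 0.45 ± 0.24 from an unexpressed level. For other cell types the ends were CD3D at -0.44 ± 0.22 and ITGAM at 0.30 ± 0.24 for leukocyte markers, CDH5 at -0.37 ± 0.21 and KDR at 0.52 ± 0.18 for endothelial markers, and MFAP4 at -0.42 ± 0.20 and COL1A2 at 0.55 ± 0.20 for fibroblast markers. None of these 7 lists held a call. At the unadjusted level the counts were 3 higher and 0 lower for plasminogen, 1 higher and 0 lower for junction, 2 higher and 0 lower for keratin and 1 higher and 2 lower for the other lineage genes, and 1 higher and 0 lower, 1 higher and 0 lower and 1 higher and 0 lower for the markers of the 3 other cell types.

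Protein and energy lists were shifted by small amounts without a call. Proteasome subunits had 30 of 31 positive changes and a median of 0.20 (0.16 with quantile normalization), from PSMB10 at -0.04 ± 0.24 to PSMB7 at 0.37 ± 0.11. Oxidative phosphorylation subunits had 52 of 59 positive and a median of 0.14 (0.10), from NDUFB6 at -0.13 ± 0.18 to ATP5MC1 at 0.37 ± 0.11. In the brightest bin of all probe sets 57.9% were positive, and 49% with quantile normalization. Ribosome biogenesis genes ran from RRP12 at -0.34 ± 0.25 to GAR1 at 0.47 ± 0.15. Interferon response genes had a median of 0.02 over 40, with 5 higher and 3 lower at an unadjusted p below 0.05, and ends of TRIM22 at -0.60 ± 0.28 and OASL at 0.51 ± 0.26. MHC class I genes ran from NLRC5 at -0.20 ± 0.23 to HLA-F at 0.42 ± 0.10, and BCL2 family and death receptor genes from BMF at -0.44 ± 0.19 to TNFRSF10A at 0.53 ± 0.15. Redox genes under NRF2 ran from ABCC2 at -0.53 ± 0.22 to HMOX1 at 0.40 ± 0.24 with a median of 0.05 (-0.01 with quantile normalization), iron and ferroptosis genes from SLC40A1 at -0.34 ± 0.31 to TF at 0.48 ± 0.22, and ABC drug transporters from ABCC2 at -0.53 ± 0.22 to ABCA3 at 0.56 ± 0.21. Counts at an unadjusted p below 0.05 were 9 higher and 0 lower for proteasome, 8 higher and 0 lower for oxidative phosphorylation, 6 higher and 0 lower for ribosome biogenesis, 2 higher and 0 lower for MHC class I, 4 higher and 1 lower for death receptor and BCL2, 2 higher and 1 lower for NRF2, 5 higher and 0 lower for iron and 1 higher and 1 lower for transporter genes. In the brightest bin of all probe sets 12.1% were higher and 4.35% lower at that level. The 8 of 59 for oxidative phosphorylation are close to that share of higher probe sets.

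**Figure D4:**
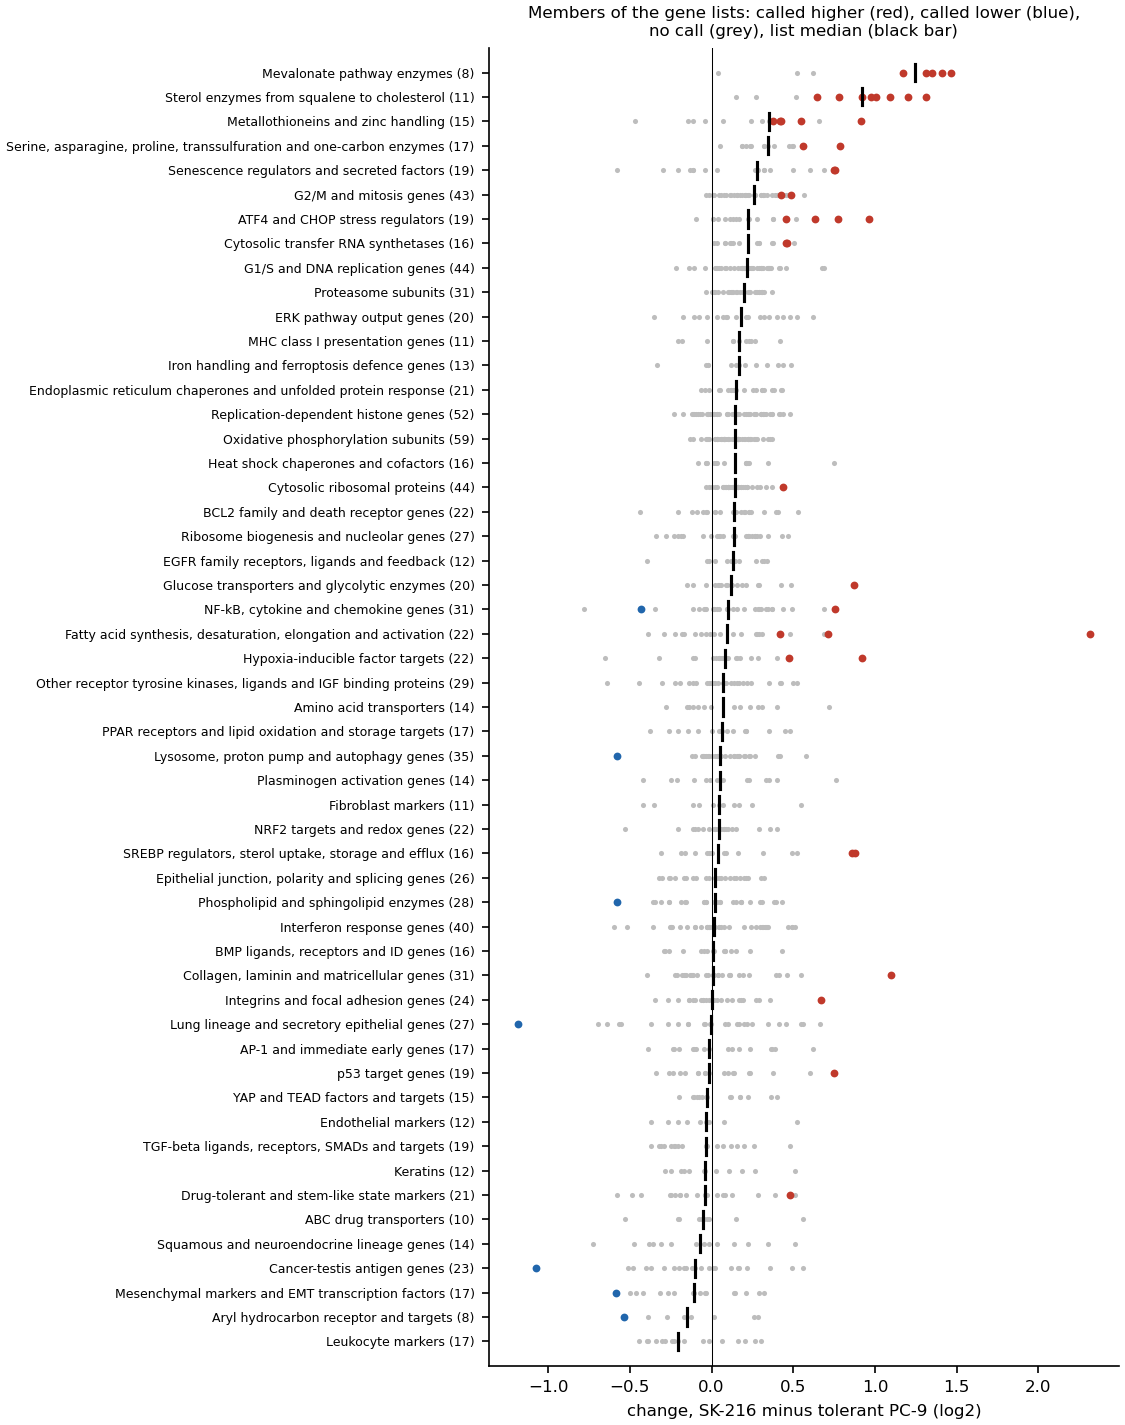
Change after SK-216 (log2, horizontal axis) of every measured member of the 53 gene lists (rows, number of probe sets in brackets), ordered by list median (black bar); red and blue points are called higher and lower, grey points have no call. The 2 rows of cholesterol synthesis have medians of 1.24 and 0.92, and all other medians lie between -0.20 and 0.35.

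Where PC-9 differed from H1975 was tested as the change in PC-9 minus the change in H1975 in the same fit. That difference was called for 233 probe sets in the direction of PC-9 (1.09%) and for 71 in the other (0.331%). Of the 80 rises in PC-9, 25 were also higher in this difference and 1 was lower, and of the 15 falls 2 were called in it. The difference contains the PC-9 change by which these probe sets were picked, which favours that direction. The split of 25 and 1 is therefore no separate evidence. Separately, 21 of the 80 rises also rose in H1975. The share of all probe sets that rose in H1975 is not given here, so this count cannot be read as many or few. The lines share no control arrays.

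The 5 called enzymes of the mevalonate arm had a called difference: MVD at 1.23 ± 0.29 (adjusted p = 0.0251), IDI1 at 1.13 ± 0.24 (0.0107), FDPS at 1.06 ± 0.17 (0.000963), ACAT2 at 0.93 ± 0.21 (0.0217) and HMGCS1 at 0.76 ± 0.14 (0.00455). In H1975 the same genes changed by 0.18 ± 0.20, 0.21 ± 0.17, 0.11 ± 0.12, 0.54 ± 0.15 and 0.55 ± 0.10, of which ACAT2 and HMGCS1 rose there. The other 3 genes of that arm had no called difference, PMVK at 0.71 ± 0.34 (0.384), MVK at 0.21 ± 0.30 (0.848) and GGPS1 at 0.13 ± 0.18 (0.833). Of the 8 called sterol enzymes 2 had a called difference, LSS at 1.27 ± 0.18 (0.00016), which was at -0.35 ± 0.12 in H1975, and CYP51A1 at 0.85 ± 0.14 (0.00115). MSMO1 and DHCR7, which rose in H1975 by 0.81 ± 0.09 and 0.71 ± 0.10, had differences of 0.17 ± 0.13 (0.632) and 0.30 ± 0.14 (0.355). SCD rose in both lines and more in PC-9, by 1.49 ± 0.23 (0.000737), and FADS2, at -0.01 ± 0.11 in H1975, differed by 0.72 ± 0.15 (0.013). TMEM97 and ERG28 differed by 0.66 ± 0.14 and 0.57 ± 0.12 (0.0146 and 0.014), and INSIG1 by 0.19 ± 0.27 (0.837), which did not pass. The called differences of ACAT2, MVD, TMEM97, FADS2 and ERG28 were lost in 4, 5, 2, 2 and 1 of the 12 fits without 1 array (adjusted p = 0.085 without SK-216 array 2, 0.0964 without SK-216 array 1, 0.0574 without SK-216 array 1, 0.0564 without SK-216 array 1 and 0.0573 without SK-216 array 2), and those of SCD, IDI1, HMGCS1, FDPS, LSS and CYP51A1 were kept in all 12. In limma without the variance trend the differences of SCD, FDPS, LSS and CYP51A1 stayed called (adjusted p = 0.0378, 0.0439, 0.00537 and 0.0495). Those of IDI1, HMGCS1, ACAT2 and MVD did not (0.102, 0.0821, 0.0669 and 0.0955), nor did those of TMEM97, FADS2 and ERG28 (0.146, 0.149 and 0.192).

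For the ATF4 group no difference passed among the 8 genes that rose in PC-9. Other members of these lists, without a call in PC-9, did have called differences. Among the stress regulators these were ATF3 at -1.20 (adjusted p = 0.00924) and STC2 at -0.66 (0.00294). Among the transporters they were SLC7A11 at -1.81 (3.32e-09), SLC7A5 at -0.80 (0.000646), SLC3A2 at -0.70 (0.00105) and SLC38A2 at 0.68 (0.00161). ATF4 changed by 0.45 ± 0.10 in PC-9 and 0.52 ± 0.10 in H1975, a difference of -0.06 ± 0.14 (adjusted p = 0.904). ASNS differed by -0.06 ± 0.17 (0.928), PSAT1 by 0.02 ± 0.12 (0.974), CHAC1 by -0.04 ± 0.23 (0.967) and TRIB3 by -0.42 ± 0.25 (0.526). A p that misses the threshold does not show that the lines changed alike. UPP1 rose less in PC-9 than in H1975, by -0.70 ± 0.17 (0.029). Among the 5 metallothioneins that rose in PC-9, MT1H and MT2A, at -0.01 ± 0.15 and -0.06 ± 0.08 in H1975, differed by 0.92 ± 0.21 (0.0213) and 0.44 ± 0.11 (0.0445). The other 3 had no called difference: MT1F at 0.59 ± 0.17 (0.0945), MT1L at 0.36 ± 0.13 (0.194) and MT1B at 0.37 ± 0.13 (0.172). SNAI2 fell in both lines, with a difference of 0.08 ± 0.15 (0.884), while CYP1B1, at -0.01 ± 0.08 in H1975, differed by -0.52 ± 0.12 (0.0199). PDZK1IP1, a membrane protein of epithelial cells, rose in PC-9 by 0.56 ± 0.13 and fell in H1975 by 1.88 ± 0.13. The call of its rise in PC-9 was lost in 6 of 12 fits without 1 array (adjusted p = 0.287 without SK-216 array 2). Leaving out 1 array ended the called differences of UPP1, MT1H, MT2A and CYP1B1 in 7, 5, 8 and 3 of 12 fits (adjusted p = 0.0914 without H1975 tolerant array 2, 0.0748 without SK-216 array 2, 0.139 without SK-216 array 2 and 0.0744 without SK-216 array 2), and that of PDZK1IP1 in none. Without the variance trend those 4 were lost as well (adjusted p = 0.108, 0.148, 0.379 and 0.252), and that of PDZK1IP1 was kept (0.000103).

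**Figure D5:**
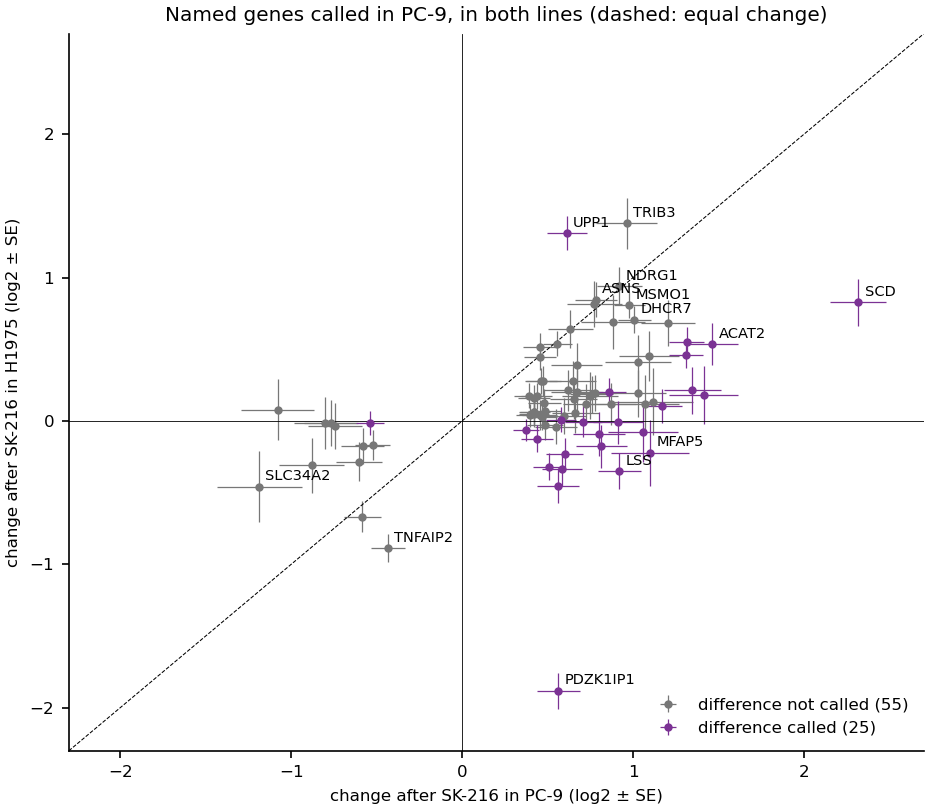
Change after SK-216 in PC-9 (horizontal axis, log2 ± standard error) against the change in H1975 (vertical axis) for the 80 named genes called in PC-9; purple marks a called difference (25 genes) and the dashed line equal change. All purple genes but UPP1 and CYP1B1 have a positive difference, UPP1 lies above it, and PDZK1IP1 is at -1.88 in H1975.

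The largest differences between the lines were, PDZK1IP1 aside, of genes called in H1975 and without a call in PC-9. TNFSF10, the death ligand TRAIL, was at 0.39 ± 0.19 in PC-9 and -3.54 ± 0.19 in H1975. STEAP4, a metalloreductase, was at 0.34 ± 0.14 and -2.49 ± 0.14, and IFIT1, an interferon-induced RNA sensor, at 0.33 ± 0.22 and -2.01 ± 0.22. The others of the 8 largest were PDZK1IP1, ACP3 at -0.38 ± 0.29 in PC-9 and -3.02 ± 0.29 in H1975, MGP at 0.17 ± 0.25 and -2.40 ± 0.25, S100A9 at 0.04 ± 0.19 and -2.38 ± 0.19, and BMP4 at 0.15 ± 0.26 and -2.11 ± 0.26. Only PDZK1IP1 of these passed in PC-9, and ACP3, MGP and IFIT1 lay at unexpressed levels there. In the other direction ANGPTL4, a lipase inhibitor and PPAR target, was at -0.21 ± 0.21 in PC-9 and 2.74 ± 0.21 in H1975, and SLC7A11 at -0.11 ± 0.09 and 1.70 ± 0.09. PC-9 values of the other 6 were 0.38 ± 0.18 for LBH, 0.01 ± 0.09 for IGFBP3, 0.14 ± 0.13 for RCAN1, 0.10 ± 0.26 for AGR2, 0.30 ± 0.31 for STK32A and -0.15 ± 0.21 for PLIN2, none past the test. IGFBP3 and SLC7A11 were already bright in tolerant PC-9 cells, at 17.38 ± 0.04 and 15.87 ± 0.11, while ANGPTL4, AGR2, STK32A and PLIN2 were at or below 5.16. For the interferon list 20 of 40 members had a called difference, with medians of 0.02 in PC-9 and -0.93 in H1975.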

How the data were processed

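RNA of 12 samples was hybridised to whole-transcript arrays, 3 per group, and each sample was grouped by its title. The authors deposited 1 log2 signal for every probe set on every array. They used Transcriptome Analysis Console, per the submitters' processing notes. Its version, how probes were summarised and normalized, and the build behind the array are not given in the sources read. No further normalization or filter was applied, so any shift between arrays that the authors' scaling left stays in the changes.

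Probe sets were named through the platform annotation and RefSeq (17687 symbols, 3739 probe sets unnamed), and those with the same symbol were tested separately. Group means were fitted with limma 3.58.1 (R 4.3.3), eBayes having a variance trend, with 8 residual degrees of freedom and two-sided tests. It was tested on simulated data. Medians and counts for the gene lists are descriptions, and 1136 of the 1291 genes in 53 lists were measured. The members and lists were chosen with earlier results of these data known. Named genes were every named fall, the 20 largest rises, up to 6 called members per list, all genes of the cholesterol and SREBP lists, all called ATF4, amino acid and synthetase genes, the extremes of lists without a call, the 8 largest called differences per direction, and EGFR, VIM, CDH1, EPCAM, MKI67, CCNB1, PLAU, PLAUR, KRT8, KRT18 and NKX2-1. Any other gene was chosen after its values were seen.

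Promoters are the 250 bases before each start in RefSeq's GRCh38.p14, matched by symbol. Chromosome 8 was left out of the sequences for display, and no such filter was applied to the motif counts. Alternatives changed the variance model, the arrays used, a replicate block, the scaling, the filter on dim probe sets, array weights, the threshold and the probe sets per symbol. Figures were drawn with matplotlib 3.10.9.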

Additional observations from a re-analysis of the deposited data

Results flagged for a closer look

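Among named genes, 40 stood out because the change after SK-216 in PC-9 differed from that in H1975 by limma's test of the difference itself. The values are the change in PC-9 minus the change in H1975 on the log2 scale, and 25 of these genes were called in PC-9. Of the lipid genes that rose in PC-9 the differences were SCD 1.49, LSS 1.27, MVD 1.23, IDI1 1.13, FDPS 1.06, ACAT2 0.93, CYP51A1 0.85, HMGCS1 0.76, FADS2 0.72, TMEM97 0.66, ERG28 0.57 and SLC25A1 0.89. Other rises in PC-9 with a larger change there were MFAP5 1.32, DPYSL3 1.14, EMP3 1.01, ATP1B3 0.99, MT1H 0.92, ALDH9A1 0.92, TGM2 0.83, ASS1 0.83, RPS15 0.56 and MT2A 0.44. PDZK1IP1 differed by 2.44. It fell in H1975, and the call of its rise in PC-9 was lost in 6 of 12 fits without 1 array. UPP1 rose less in PC-9 than in H1975, by -0.70, and CYP1B1, which fell in PC-9 and had no call in H1975, differed by -0.52. Genes without a call in PC-9 that fell in H1975 differed by TNFSF10 3.94, STEAP4 2.83, ACP3 2.64, MGP 2.57, S100A9 2.42, IFIT1 2.34 and BMP4 2.26. Those that rose in H1975 without a call in PC-9 differed by ANGPTL4 -2.95, LBH -1.99, IGFBP3 -1.95, RCAN1 -1.95, AGR2 -1.91, SLC7A11 -1.81, STK32A -1.79 and PLIN2 -1.72. Of the 40 differences 25 were kept in all 12 fits that left out 1 array, and the call of DPYSL3 was lost in 11 of them, the most among these genes. The mean signal of DPYSL3 in both PC-9 groups lay below 5.16, the 95th percentile of unexpressed olfactory receptors. Causes of these differences were not tested.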

How the results depend on the processing

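The 13 rises among cholesterol synthesis genes numbered 10 to 13 under the alternatives run. Counts over all probe sets moved more. In limma without the variance trend there were 18 higher and 0 lower in PC-9 (from 80 and 15), 76 and 23 for the difference between lines (from 233 and 71), and 0 of the 8 ATF4, amino acid and synthetase rises. At an unadjusted p below 0.05 that fit had 1097 higher and 998 lower in PC-9. At an adjusted p below 0.01 the counts were 31 and 2, 109 and 27, and 2. Quantile normalization gave 51 higher and 18 lower in PC-9, 107 lower in the difference and 5 in the ATF4 group, and the cause was not tested. The 6 PC-9 arrays alone, with fewer samples, left 2 of the ATF4 group. With the replicate block within each line 48 were higher and 10 lower in PC-9, and 4 was the count of the ATF4 group (5 with the block on the PC-9 arrays alone). Deviations from the group means correlated at r = 0.015 to 0.029 for same-numbered PC-9 arrays of the 2 groups. For arrays of other numbers they correlated at -0.037 to 0.019. Such small values do not settle whether the numbers pair the arrays. Leaving out each array gave 28 to 87 higher and 2 to 17 lower in PC-9, 170 to 259 and 50 to 86 for the difference, and 2 to 8 for the ATF4 group. No called change of a named gene in PC-9 changed its sign under these alternatives. Genes near the level of unexpressed olfactory receptors, whose 95th percentile was 5.16, have little signal to change from.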
